A study of Mus musculus with 12 samples.

Results

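The mutant line Mut-1 was compared with the wild-type line WT-2, the pair of opposite genotype that holds neither WT-1 nor Mut-2. It takes 6 of the 12 RNA-seq libraries of the series, 3 of each line, and every gene was considered: of 31641 gene symbols in the table, 16533 had enough counts to be tested. Both lines are embryonic stem cells of C57BL/6 mice, pluripotent cells that were derived from blastocysts and grown in medium with serum and the cytokine LIF on mouse embryonic fibroblast feeders. Mut-1 carries the genotype label Tin2 S341X, and WT-2 is labelled wild type. Whether the allele is on 1 or both chromosomes, how the lines were made and whether each is a single clone is not given in the sources used here. RNA was taken from stem cells still on their feeders, and the libraries can hold RNA of both. In the design text, the 3 libraries per line are technical replicates. All p-values therefore measure the spread between libraries, and with 1 line on each side, the genotype and any other difference between these lines cannot be told apart.

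Tinf2 encodes TIN2, which holds the shelterin complex together: it bridges TRF1 and TRF2, which bind double-stranded telomere DNA, and recruits TPP1 with POT1, which binds the single strand and guides telomerase. In mouse embryonic stem cells, telomeres are also extended by recombination, and the Zscan4 proteins, which a small and changing fraction of the cells makes during a passing state that resembles the 2-cell embryo, are known to act in it. The lines are thus read here first for the targeted gene and shelterin, then for all genes, and then for the 2-cell-stage genes and other groups.

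Total counts were 15702083, 14766477 and 16816094 for Mut-1 against 16013579, 17106437 and 15127354 for WT-2. The defining pluripotency genes Pou5f1, Nanog, Sox2, Zfp42 and Esrrb were abundant in both lines, for example Pou5f1 at 285 ± 38.8 and 285 ± 19.4 CPM and Esrrb at 875 ± 93.4 and 884 ± 92.5 CPM (counts scaled by normalized library size, SD, n = 3 libraries of Mut-1 and WT-2). Markers of feeder fibroblasts took 2.24% (95% Wilson interval 2.23% to 2.25%), 1.18% and 1.04% of the counts of Mut-1 replicates 1, 2 and 3, and 1.25%, 1.24% and 0.954% of those of WT-2. Mut-1 replicate 1 stood apart, and the means of 1.49% ± 0.657 and 1.15% ± 0.168 did not differ beyond the spread (exact two-sided permutation p = 0.6, where the smallest possible is 0.1). Without that library the difference of 0.338 percentage points became -0.0385. In WT-1, a line that enters only the shared estimate of the spread and the comparisons with the other pair, replicates 1 and 2 were nearly the same in their counts.

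Tinf2 was lower in every Mut-1 library than in every WT-2 library. The gene is at chr14:55674689-55681820 of GRCm38, transcribed from the minus strand. Mut-1 replicates 1, 2 and 3 had 29.8, 25.2 and 20.1 CPM, and WT-2 replicates 64.0, 58.8 and 60.6 CPM. The log2 fold change was -1.29 (SE 0.17, adjusted p = 0.00324 by the quasi-likelihood test of edgeR with Benjamini-Hochberg adjustment over all genes tested, as throughout). Reads of the altered transcript count as Tinf2, so this value is the level of all Tinf2 RNA.

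Of the other 6 shelterin genes, Terf1, which encodes the telomere-binding protein TRF1, rose in Mut-1. Its levels were 116, 169 and 167 CPM in Mut-1 against 79.5, 83.9 and 76.2 CPM in WT-2, with no overlap, a log2 fold change of 0.91 (SE 0.15, edgeR adjusted p = 0.0129). In 6 of 15 alternative analyses, among them the fit of the 6 libraries alone, it no longer passed, with adjusted p up to 0.122. Terf2 and Terf2ip, for TRF2 and its partner RAP1, Acd for TPP1, and Pot1a and Pot1b did not pass, with log2 fold changes between -0.17 (Terf2ip) and -0.05 (Acd). Among 21 genes of telomerase and telomere replication, which include 3 Zscan4 copies, Zscan4c and Zscan4f alone passed in edgeR. An unadjusted p under 0.05 was found for 5 of the 21, against 13.1% of all genes tested. The reverse transcriptase gene Tert had 17 ± 4.34 CPM in Mut-1 against 23 ± 9.27 CPM in WT-2. Naf1, an assembly factor of telomerase RNA particles, had a log2 fold change of -0.68 (edgeR adjusted p = 0.0802), which passed with the replicate number as a block (adjusted p = 0.0449 in the fit of 12 libraries and 0.0294 in that of 6). It lies on chromosome 8, which was lower as a whole in Mut-1 (given below). WT-1 and Mut-2 had 44.8 and 41.7 CPM of Naf1, closer to Mut-1 (37.3 CPM) than to WT-2 (59.8 CPM). In Mut-2 against WT-1 its log2 fold change was -0.11.

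A gene was called at an edgeR adjusted p under 0.05 and a log2 fold change of at least 1 in either direction. Across all genes, 54 were called higher in Mut-1 (0.327% of those tested) and 7 lower (0.0423%), 0.369% in all. The adjusted p alone was passed by 98 genes higher (0.593%) and 26 lower (0.157%), 0.75% in all, and 2161 genes (13.1%) had an unadjusted p under 0.05. In 1666 genes (10.1%) all 3 Mut-1 libraries lay above all 3 WT-2 libraries, and in 1429 (8.64%) below, 18.7% in all. The median log2 fold change over all genes was 0. Libraries of the same number deviated together in the 2 lines, and with that number as a block, 81 genes were called higher and 14 lower, or 123 and 23 when only the 6 libraries were fitted. The fit of the 6 libraries without a block called 29 and 4, and leaving out Mut-1 replicate 3 or WT-2 replicate 1 left 17 and 3 each. All 61 calls kept their direction in all 15 alternatives, and 14 of them passed the adjusted p in every one: Gm364, Gm8332, Gm2016, Gm5662, Dpp4, Ap5z1, Rbak, Jam2, Zdhhc4, Ccz1, Zfp12 and Slc29a4 among the higher genes, and Tinf2 and 1700013H16Rik among the lower.

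**Figure D1:**
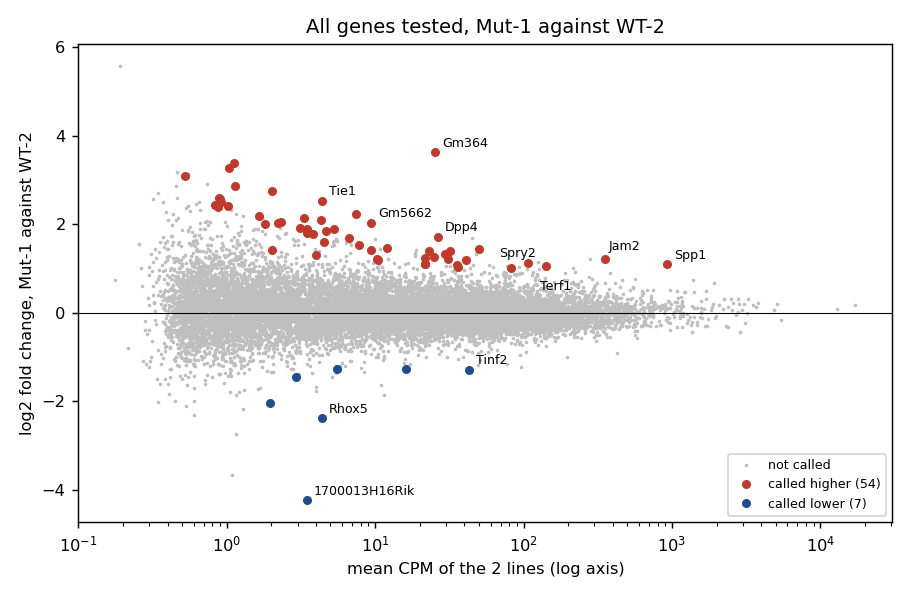
Log2 fold change of Mut-1 against WT-2 (vertical axis) against the mean CPM of the 2 lines (horizontal log axis) for the 16533 genes tested, 1 point each. The 54 genes called higher (red) run from 1.01 to 3.63 and the 7 called lower (blue) from -1.27 to -4.24, while most points lie near 0.

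By a rule on size (called, at least 2 CPM on average, no overlap, no predicted gene), 12 higher genes were taken by size. Tie1, a receptor tyrosine kinase best known from endothelium, had 7.93, 5.59 and 9 CPM in Mut-1 against 0.966, 1.72 and 1.19 CPM in WT-2 (log2 fold change 2.53, SE 0.32, edgeR adjusted p = 0.00324). The lines did not overlap. Of 10 endothelial markers tested, Tie1 was called higher and Plvap, a protein of endothelial pores, was called lower, and Cdh5, which encodes the cadherin of endothelial junctions, had 0, 0 and 7 counts in Mut-1 and 0, 3 and 0 in WT-2. Dpp4, a cell-surface peptidase, was the most abundant of the 12, at 34.2, 41.5 and 45.4 CPM in Mut-1 against 10.3, 15.5 and 11.1 CPM in WT-2 (1.72, SE 0.20, adjusted p = 0.00324 in edgeR). Every Mut-1 library lay far above every WT-2 library in Dpp4. Nxf3, an X-linked member of a family of RNA export factors, was at 13.1, 9.87 and 14.1 CPM against 2.66, 1.90 and 3.37 CPM (2.22, SE 0.30). Aox3, an aldehyde oxidase, was at 6.47, 7.38 and 7.20 CPM against 1.51, 2.02 and 1.39 CPM (2.09, SE 0.30).

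The remaining genes of this group were between 3.71 ± 1.10 and 17.7 ± 5.50 CPM in Mut-1. They were Zscan4f and Zscan4c, described with the 2-cell stage, the kininogen gene Kng2, the protease inhibitor gene Serpina3m, the chitinase gene Chit1, Xkr6, Papolb, a poly(A) polymerase known from testis, and Dio3. Kng2 had 5.46 ± 1.99 CPM in Mut-1 against 1.48 ± 0.459 CPM in WT-2, a log2 fold change of 1.88. Serpina3m was at 5.87 ± 0.528 against 1.69 ± 0.802 CPM, and Chit1 at 6.77 ± 1.89 against 2.24 ± 0.308 CPM. Dio3, which inactivates thyroid hormone and is imprinted, had 14.6, 14.5 and 24.1 CPM in Mut-1 against 3.92, 7.73 and 7.54 CPM in WT-2 (1.47, SE 0.26, edgeR adjusted p = 0.0191). Other genes of the Dlk1-Dio3 imprinted region did not pass: Dlk1 had a log2 fold change of 0.13, Meg3 of 0.25, Rian of 0.00 and Mirg of 0.21.

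Among more abundant genes called higher, Spp1, which encodes the secreted phosphoprotein osteopontin, was at 1280, 1140 and 1350 CPM in Mut-1 against 495, 623 and 637 CPM in WT-2 (1.10, SE 0.18, edgeR adjusted p = 0.0135). Jam2, a junctional adhesion molecule, was at 461, 469 and 549 CPM against 195, 258 and 181 CPM (1.22, SE 0.15, adjusted p = 0.00324 in edgeR). For both genes the Mut-1 libraries lay far above the WT-2 libraries. Spry2, a feedback inhibitor of growth factor receptors, was at 161, 216 and 201 CPM against 64.3, 101 and 112 CPM (1.06, SE 0.20). It was the only 1 of 20 genes of FGF-ERK feedback to pass, and the median of that list was 0.09. Pros1, the anticoagulant protein S, and Tenm4, a teneurin of cell contacts, were called as well, at 110 ± 17 against 54.6 ± 10.5 CPM and 43.0 ± 5.76 against 18.6 ± 5.32 CPM.

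The rule took all 5 lower genes it allowed, Tinf2 among them. Rhox5, an X-linked homeobox gene in the list of germ cell and meiosis genes, had 0.545, 1.86 and 1.80 CPM in Mut-1 against 7, 7.73 and 7.34 CPM in WT-2 (-2.39, SE 0.47, edgeR adjusted p = 0.0342). The counts behind it were 9, 27 and 29 against 116, 130 and 111, and in 9 of 15 alternatives it did not pass, with adjusted p up to 0.195. Cpne9, a copine, was at 1.56 ± 0.296 against 4.31 ± 0.807 CPM, and Plvap at 3.23 ± 0.626 against 7.80 ± 2.05 CPM. The table's entry X6.Sep, whose name has the form of a spreadsheet date and was given no gene here, was at 9.35 ± 2.66 against 22.7 ± 3.14 CPM.

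**Figure D2:**
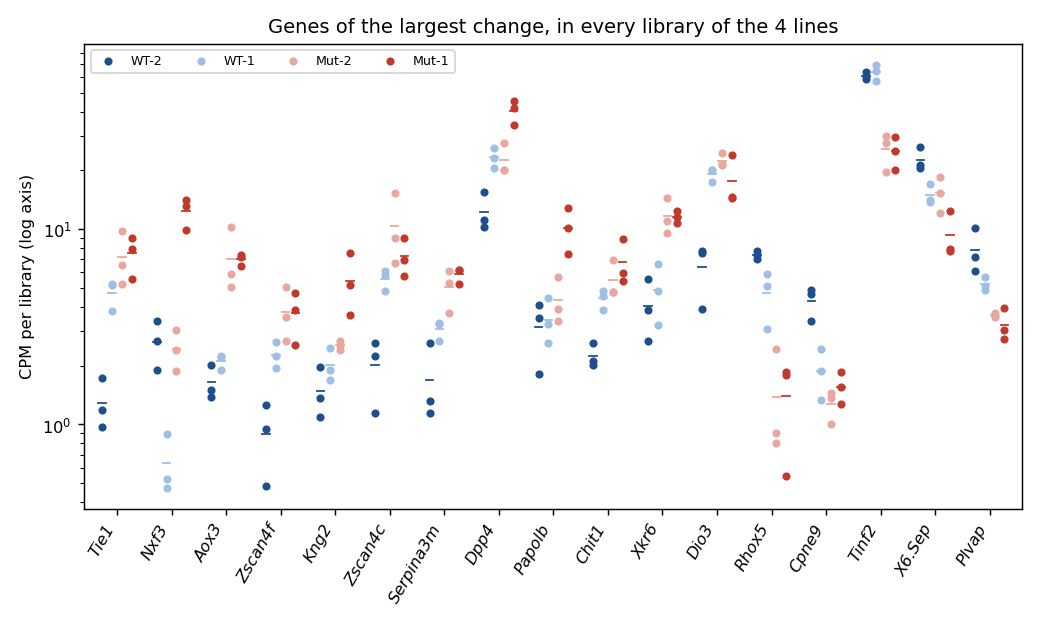
CPM (log axis) of the 12 higher and 5 lower genes of the rule in each of the 12 libraries, with points for libraries and bars for line means. For each gene the Mut-1 points (dark red) and the WT-2 points (dark blue) do not overlap; WT-1 is light blue and Mut-2 light red, and for Nxf3 WT-1 lies below both.

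Predicted genes were outside the rule, and 2 of them, chosen after their values were seen, had the largest changes. Gm364, on the plus strand of the X chromosome at 57409154 to 57488767, had 33.9, 44.0 and 62.6 CPM in Mut-1 against 3.56, 2.67 and 5.09 CPM in WT-2 (3.63, SE 0.48, edgeR adjusted p = 0.00324). WT-1 and Mut-2 had means of 1.61 and 2.08 CPM, so Mut-1 stood apart from the other 3 lines. The largest fall was that of 1700013H16Rik, on the minus strand of X at 53742901 to 53757831, with 0.242, 0.345 and 0.435 CPM in Mut-1 against 6.76, 6.18 and 6.68 CPM in WT-2 (-4.24, SE 0.47, edgeR adjusted p = 0.00324). Here WT-2 stood apart, since WT-1 and Mut-2 had means of 0.42 and 0.247 CPM. Xlr3c, of an X-linked family of near-identical copies, had a similar pattern at a lower level, 0.759 ± 0.359 CPM in Mut-1 against 3.12 ± 0.170 CPM in WT-2, with 0.887 and 0.956 CPM in WT-1 and Mut-2. The X chromosome held 6 calls among 571 genes (1.05%).

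Of the 2-cell-stage genes, which mark the passing 2-cell-like state of embryonic stem cells, 33 of 34 tested had a log2 fold change above 0 in Mut-1. Of the 34, 6 were called higher, against 0.327% of all genes tested. The list's median log2 fold change was 1.61, against 0 for all genes. This list had been seen to differ between lines in earlier results, and its direction is not independent evidence. The called genes were Zscan4c, Zscan4f, Gm8300, Gm5662, Arg2, a mitochondrial arginase, and Gm4340. Their log2 fold changes ran from 1.85 (Zscan4c) to 2.43 (Arg2). With the replicate number as a block in the fit of 12 libraries 10 were called, among 81 higher calls over all genes. In the fit of the 6 libraries alone 1 was called, among 29. Apart from Prmt5, Dppa4 and Dppa2, the list's tested genes had means of at most 15.1 CPM in Mut-1, that of Gm5662.

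Sequence just upstream of 3 Zscan4 copies is shown because 2 of these copies were called in the main fit and the third was not. The third, Zscan4d, was higher in Mut-1 as well (log2 fold change 1.62), so the copies differ here by the threshold and not in direction. It lies outside the counted transcripts, and the transcripts themselves were not compared. The sequences are RefSeq's, of the build GRCm38.p6, each 200 bases 5′ to 3′ ending 39 (Zscan4c), 16 (Zscan4f) and 50 (Zscan4d) bases before the start that RefSeq gives the gene. Capitals mark the 7 positions at which the copies differ.
Zscan4c, chr7:11005506-11005705, plus strand: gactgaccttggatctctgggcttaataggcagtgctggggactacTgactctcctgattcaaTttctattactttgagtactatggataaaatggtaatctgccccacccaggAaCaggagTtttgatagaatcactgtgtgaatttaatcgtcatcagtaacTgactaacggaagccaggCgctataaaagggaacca
Zscan4f, chr7:11397699-11397898, plus strand: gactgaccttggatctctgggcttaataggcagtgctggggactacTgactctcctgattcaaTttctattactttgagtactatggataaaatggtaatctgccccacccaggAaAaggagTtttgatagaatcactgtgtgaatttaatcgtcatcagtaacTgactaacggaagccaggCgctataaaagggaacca
Zscan4d, chr7:11166199-11166398, minus strand: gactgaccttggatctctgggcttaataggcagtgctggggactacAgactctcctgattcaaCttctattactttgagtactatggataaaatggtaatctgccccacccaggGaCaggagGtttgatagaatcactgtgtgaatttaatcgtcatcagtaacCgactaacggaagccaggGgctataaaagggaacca
Zscan4c and Zscan4f shared 99.5% of these bases, Zscan4c and Zscan4d 97.0%, and Zscan4d and Zscan4f 96.5%. Comparison of the bases is a description and shows no binding site.

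Zscan4c had 5.75, 9.04 and 6.95 CPM in Mut-1 against 1.15, 2.62 and 2.25 CPM in WT-2 (1.85, SE 0.36, edgeR adjusted p = 0.0323). Zscan4f had 2.54, 3.86 and 4.72 CPM against 0.483, 0.951 and 1.26 CPM (2.05, SE 0.39, adjusted p = 0.0301 in edgeR). For both copies every Mut-1 library was above every WT-2 library, and for both the lowest library of each line was replicate 1. Zscan4d, at 7.92 ± 2.46 against 2.59 ± 1.25 CPM, did not pass (1.62, edgeR adjusted p = 0.11). Nor did Zscan4a (1.57), Zscan4b (1.12) or Zscan4e (1.93). Zscan4c and Zscan4f each missed the threshold in 8 of 15 alternatives, with adjusted p up to 0.17 and 0.181, while Zscan4d passed in 4 of 15. A pseudogene of the family, Zscan4-ps2, was called at 5.38 ± 1.46 against 1.54 ± 0.448 CPM.

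A cluster of predicted genes on chromosome 12, which holds Gm8300 and Gm5662 of the called 2-cell genes, was higher in Mut-1. Between 87514316 and 88320122 (GRCm38, the starts of its first and last called gene), all 14 tested genes were above 0, with a median log2 fold change of 2.02, and 7 were called: Gm8332, BB287469, Gm2016, Gm5662, Gm6803, Gm8300 and Gm5039. This window was drawn around calls after they were seen. Gm5662 was the most abundant, at 10, 16.1 and 19 CPM in Mut-1 against 2.90, 3.68 and 4.50 CPM in WT-2 (2.03, SE 0.27, edgeR adjusted p = 0.00324). Gm2016 was at 4.30, 6.14 and 5.83 CPM against 0.845, 1.43 and 1.39 CPM (2.15, SE 0.29).

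The other 2 lines set these values in context. For Gm5662, WT-1 had a mean of 9.33 CPM and Mut-2 of 20.4 CPM, and for Zscan4c 5.57 and 10.3 CPM, so that WT-1 lay closer to Mut-1 than WT-2 did. The median over the 2-cell list was 0.35 for Mut-1 against WT-1, which shares the Mut-1 libraries, 2 for Mut-2 against WT-2, which shares those of WT-2, and -1.21 for WT-2 against WT-1. In Mut-2 against WT-1, which shares none, it was 0.84, and none of the 6 called genes passed there. Of the 10 genes called in the Zscan4 and chromosome 12 clusters, all 10 had WT-1 and Mut-2 on the Mut-1 side of the midpoint between Mut-1 and WT-2. Dppa2 and Dppa4, which act upstream of this state, did not pass (0.09, SE 0.31, and 0.04, SE 0.18). Of the 2-cell genes, 6 were also called, with a median of 1.66, when the feeder share was a covariate, and without Mut-1 replicate 1 it was 1.88.

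Chromosome 5 held 12 of the 54 higher calls, 10 of them at its distal end. From 140620578 onward, a point placed where a single step in the difference between the lines left the smallest residual, 116 of 118 tested genes were above 0, with a median log2 fold change of 0.74, while the 669 better-expressed genes before it had a median of -0.01. The 10 called genes (8.47% of those in the region) were Ap5z1, Ccz1, D5Ertd605e, Mtus2, Papolb, Rbak, Slc29a4, Zdhhc4, Zfp12 and Zfp316, and 36 passed the adjusted p alone. Ccz1, part of an activator of Rab7 on late endosomes, had 117, 162 and 162 CPM in Mut-1 against 60.8, 69.4 and 70.5 CPM in WT-2 (1.13, SE 0.13, edgeR adjusted p = 0.00324). Ap5z1, a subunit of an adaptor complex of late endosomes, had 58.6, 87.6 and 75.0 CPM against 23.1, 31.3 and 27.0 CPM (1.44, SE 0.16). The lines did not overlap in either gene. Slc29a4, a monoamine transporter, was at 46.0, 47.7 and 52.3 CPM against 25.4, 21.2 and 24.2 CPM, and the zinc finger genes Rbak, Zfp12 and Zfp316 had log2 fold changes of 1.24, 1.10 and 1.41. Genes of general function rose with them, such as Kdelr2, the receptor that returns proteins to the endoplasmic reticulum (0.88), and Brca2, which acts in homologous recombination, at 172 ± 32.0 against 105 ± 13.3 CPM (0.71, edgeR adjusted p = 0.0418). WT-1 and Mut-2 lay on the WT-2 side for all 10 called genes, and the region's median was -0.02 in Mut-2 against WT-1.

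A smaller step was found on chromosome 10. From 93858489 onward, 161 of 188 tested genes were above 0 (median 0.32, and 0.04 in Mut-2 against WT-1), and 3 were called: Gli1, Srgap1 and Gm4340. Gm4340 was also given among the called 2-cell genes, and its log2 fold change in Mut-2 against WT-1 was 0.81. Gli1, a transcription factor and target of Hedgehog signalling, was at 44.2, 37.1 and 46.1 CPM in Mut-1 against 20.6, 13.8 and 16.7 CPM in WT-2 (1.32, SE 0.23, edgeR adjusted p = 0.0191). It did not overlap between lines, and WT-1 and Mut-2 had 12 and 18.5 CPM. It was the only 1 of 10 Hedgehog pathway genes to pass, and 5 were above 0 and 5 below. Srgap1, which acts in Slit-Robo signalling, was at 46.1 ± 6.29 against 17.5 ± 1.16 CPM.

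Chromosome 8 went the other way. Over 623 genes of at least 5 CPM its median shift was -0.22, with 18.9% of genes above 0, and in Mut-2 against WT-1 the shift was -0.05. Of the 26 genes that passed the adjusted p and were lower (0.157% of the 16533 tested), 13 lay on this chromosome, of 863 tested there. Plvap was the only one of the 13 past the fold rule. Prmt7, an arginine methyltransferase, was at 103 ± 7.03 against 161 ± 12.5 CPM, and Upf1, the helicase of nonsense-mediated decay, at 133 ± 2.65 against 199 ± 7 CPM. Wrn, the Werner helicase of telomere replication and repair, was at 16.6, 18.2 and 14.3 CPM against 24.6, 26.2 and 28.3 CPM (-0.69, edgeR adjusted p = 0.0405). WT-1 and Mut-2 had 18.4 and 16.1 CPM of Wrn, closer to Mut-1.

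Chromosome 14, which carries Tinf2, was shifted up by 0.35 over 396 genes, with 93.7% above 0, and by 0.43 in Mut-2 against WT-1. It held 5 higher calls, Gng2, Shisa2, Spry2, Uggt2 and Xkr6, and Tinf2. Uggt2, which checks glycoprotein folding, was at 33.0, 34.9 and 33.0 CPM in Mut-1 against 9.78, 13.1 and 15.7 CPM in WT-2 (1.39, SE 0.19, edgeR adjusted p = 0.00481). The distal parts of chromosomes 5 and 10, the clusters of Zscan4 and of chromosome 12, chromosome 14 and X held 35 of the 61 calls. In that order, 8.47%, 1.6%, 50%, 50%, 1.11% and 1.05% of their tested genes were called, against 0.369% over all genes. The 2 clusters were drawn around calls, and the 2 distal parts from steps in this same difference. The count of 35 thus depends in part on how the regions were drawn. Apart from chromosomes 8, 10 and 14, no autosome had a median shift larger than 0.05 in size.

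**Figure D3:**
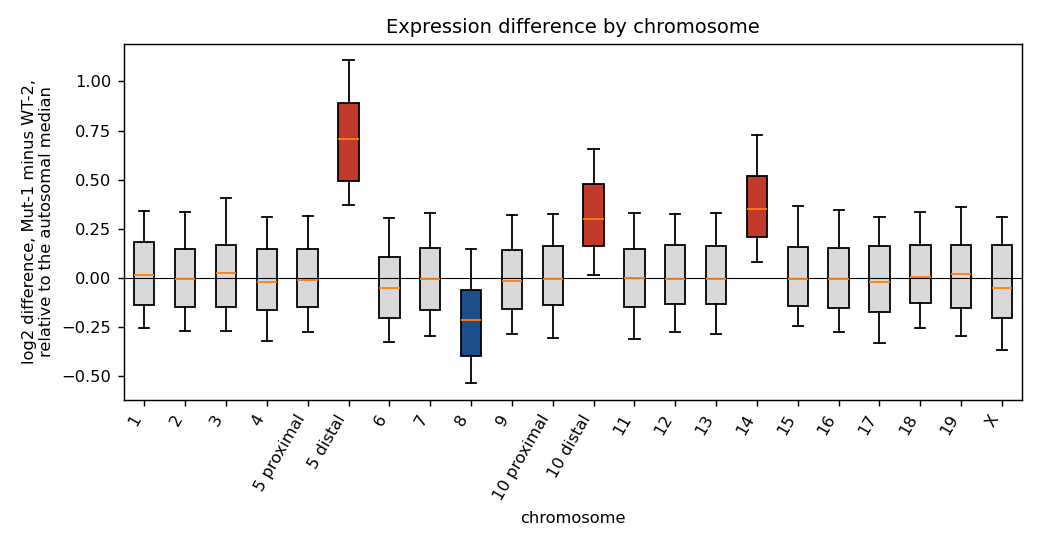
Log2 difference between Mut-1 and WT-2 relative to the autosomal median, by chromosome, for genes of at least 5 CPM; boxes show quartiles with the median as a line, and whiskers reach the 10th and 90th percentiles. The distal part of chromosome 5 (median 0.71 over 78 genes), the distal part of chromosome 10 (0.30) and chromosome 14 (0.35) lie above 0 and chromosome 8 (-0.22) below.

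Mut-2 against WT-1 is the pair of opposite genotype that shares no library with this one. It had 22 genes called higher (0.133%) and 8 lower (0.0484%), 0.181% in all. The calls in common were 5 higher genes, Aox3, Spry2, Shisa2, Gm11543 and Nxf3 (9.26% of the higher calls here and 22.7% of those in the other pair), and 1 lower gene, Tinf2 (14.3% and 12.5%). Both pairs were fitted together with a shared estimate of the spread, and in separate fits of 6 libraries none was called in both. Tinf2 had a log2 fold change of -1.31 in the other pair (edgeR adjusted p = 0.00898), Aox3 of 1.74 (0.0292), Spry2 of 1.41 (0.01), Shisa2 of 1.35 (0.0264) and Nxf3 of 1.93 (0.0364). Spry2, Shisa2 and Tinf2 lie on chromosome 14, whose median shift was 0.35 here and 0.43 in the other pair. For Spry2 and Shisa2, a gene's own change and that of the chromosome were not separated. For Nxf3 the level differed: Mut-2 had 2.44 CPM, near WT-2 at 2.64 CPM, and WT-1 0.632 CPM. Of the 54 higher genes 45 were also above 0 in the other pair, where 50.3% of all genes were, and their median was 1.75 here and 0.66 there.

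Placing the other 2 lines against the midpoint between Mut-1 and WT-2 on the log2 scale separated the calls. For 22 of the 54 higher genes both WT-1 and Mut-2 were on the Mut-1 side, so that WT-2 was the low line by this rule. For 20 both were on the WT-2 side, so that Mut-1 was the high line. For 12, WT-1 was on the WT-2 side and Mut-2 on the Mut-1 side, so that the lines fell by genotype. Over all genes tested these shares were 30.2%, 29.3% and 27.4%, and the calls' shares were 40.7%, 37.0% and 22.2%. Of the 7 lower genes, 3 fell by genotype (Tinf2, Rhox5 and Plvap), for 3 WT-2 was the high line (1700013H16Rik, Xlr3c and Cpne9), and for X6.Sep Mut-1 was the low line. These placements rest on the same libraries as the calls and are a description. The midpoint rule does not measure separation by genotype. For several genes placed with WT-2 as the low line, among them Tie1, Jam2 and Gm8332, every mutant library lay above every wild-type library. For Spp1, placed by genotype, the libraries of the genotypes overlapped.

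**Figure D4:**
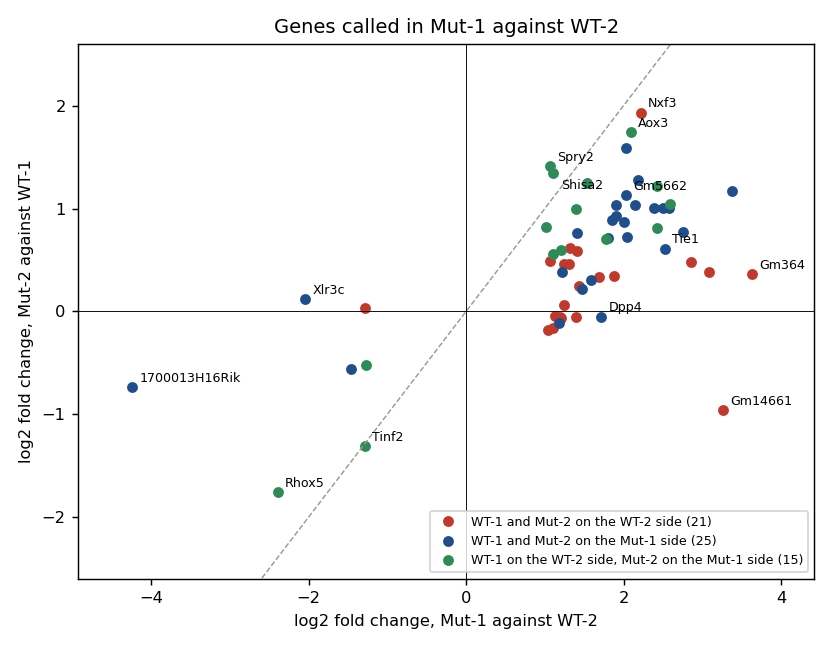
Log2 fold change of the 61 called genes in Mut-1 against WT-2 (horizontal axis) and in Mut-2 against WT-1 (vertical axis), coloured by the side on which WT-1 and Mut-2 lie; the dashed line marks equal values. Tinf2, Spry2, Shisa2, Aox3 and Nxf3 lie near the line, while Gm364, Dpp4 and 1700013H16Rik lie near 0 on the vertical axis compared with their horizontal values.

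The difference between the 2 pairs was tested gene by gene. At an edgeR adjusted p under 0.05 and a log2 difference of at least 1 in either direction there were 7 genes (0.0423%). Of these, 5 had a higher difference in this pair (0.0302%) and 2 a lower one (0.0121%), while 6.71% of all genes had an unadjusted p under 0.05. Krt8, a keratin of simple epithelia and trophoblast, had 46.1, 36.8 and 56.9 CPM in Mut-1 against 24.0, 22.8 and 25.0 CPM in WT-2 (0.96, SE 0.16, edgeR adjusted p = 0.0148), and -0.70 in the other pair. In 6 of 15 alternatives Krt8 did not pass in this pair (adjusted p up to 0.124). Wdfy1, an adaptor of Toll-like receptor signalling, was at 19.7 ± 2.66 CPM in Mut-1 against 36.0 ± 1.65 CPM in WT-2, a log2 fold change of -0.87 (edgeR adjusted p = 0.0129), and 1.22 in the other pair. Its levels paired Mut-1 with WT-1 (17.5 CPM) and WT-2 with Mut-2 (40.9 CPM). Capn11, a calpain protease, did not pass in this pair (-0.13) and had 3.36 in the other.

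Cholesterol synthesis genes were below 0 for 24 of 24 tested, with a median log2 fold change of -0.67, but none passed in edgeR. At an unadjusted p under 0.05 there were 10, against 13.1% of all genes tested, and DESeq2 called 0. With a replicate block in the fit of the 6 libraries 2 were called and 5 passed the adjusted p, against 0 and 0 with that block in the fit of 12. Dhcr7, the last enzyme of the pathway, was at 30.2 ± 12 CPM in Mut-1 against 68.1 ± 28.9 CPM in WT-2 (-1.18, edgeR adjusted p = 0.21, and with the block 0.0368 in the fit of 6 libraries and 0.0856 in that of 12). Insig1, which retains the pathway's regulator in the endoplasmic reticulum, had 44.3, 88.4 and 40.8 CPM in Mut-1 against 200, 147 and 58.5 CPM in WT-2. Replicate 3 of WT-2 lay within the Mut-1 range for Insig1, and the WT-2 libraries spread over a wider range than those of Mut-1. Mvd (-1.01) and Msmo1 (-1.15) had the same sign. The list's median was -0.38 in Mut-2 against WT-1.

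Genes of germ cells and meiosis moved in both directions. Of 34 tested, Syce1, of the synaptonemal complex, was called higher (14.4 ± 2.40 against 6.23 ± 0.227 CPM, 1.21), and Rhox5 lower. Stag3, a meiotic cohesin subunit, passed the adjusted p at 28.1, 30.9 and 31.7 CPM against 62.4, 48.3 and 54.0 CPM (-0.86, SE 0.14, edgeR adjusted p = 0.0135), and so did Hsf2bp, a partner of BRCA2 in meiosis, at 40.7 ± 9.24 against 74.8 ± 1.79 CPM (-0.88, edgeR adjusted p = 0.0288). Both were also below 0 in the other pair, at -0.69 and -0.78, without passing. In this pair Stag3 missed the threshold in 3 of 15 alternatives (adjusted p up to 0.17) and Hsf2bp in 7 (up to 0.189). The list's median was 0.14.

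Among 33 imprinted genes, which are read from 1 parental copy, Peg3 passed, at 58.6, 78.8 and 57.2 CPM in Mut-1 against 129, 117 and 128 CPM in WT-2 (-0.95, SE 0.14, edgeR adjusted p = 0.00856). WT-1 and Mut-2 had 93.2 and 89.9 CPM, between these lines, and in 3 of 15 alternatives Peg3 did not pass (adjusted p up to 0.141). Nnat, a proteolipid gene, was at 4.98 ± 1.36 against 17.9 ± 8.08 CPM (-1.85, edgeR adjusted p = 0.0565), which passed with the replicate block (0.00511 in the fit of 12 libraries and 0.0119 in that of 6). Grb10, an adaptor that restrains growth factor receptors, was at 173 ± 43.0 against 77.9 ± 5.45 CPM (1.15, edgeR adjusted p = 0.0641). With the replicate block it passed in the fit of 6 libraries (adjusted p = 0.0115) and not in that of 12 (0.0601).

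Genes of recombination and ALT, the pathway that copies telomeres by recombination, were below 0 for 30 of 38, with a median of -0.20. Wrn and Brca2, given with chromosomes 8 and 5, were the 2 that passed, in opposite directions. Each missed the threshold in 9 of 15 alternatives, with adjusted p up to 0.209 for Wrn and 0.255 for Brca2. The helicase gene Blm had a log2 fold change of -0.36 (edgeR adjusted p = 0.174), and Atrx and Daxx, whose loss is known from ALT tumours, of -0.04 and -0.08. DNA replication genes were below 0 for 38 of 42 (median -0.27), 12 at an unadjusted p under 0.05, against 13.1% of all genes tested. None passed in edgeR, while DESeq2 and the block in the fit of the 6 libraries each had 2 past the adjusted p, and the block in the fit of 12 libraries had 0. Gins2, of the replicative helicase, had the smallest p (53.6 ± 6.32 against 75.9 ± 2.77 CPM, -0.50, adjusted p = 0.0707 in edgeR). Without Mut-1 replicate 1, the library of high feeder share, the medians became -0.13 and -0.16. Glycolysis and hypoxia genes were below 0 for 27 of 33, and Pdk1, the kinase that limits pyruvate entry into mitochondria, passed (111 ± 2.34 against 165 ± 16.6 CPM, -0.57, edgeR adjusted p = 0.0401), and missed the threshold in 9 of 15 alternatives (adjusted p up to 0.24). Without WT-2 replicate 1 that list's median went from -0.24 to 0.09, and to 0.07 without both libraries numbered 1.

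Feeder fibroblast markers were above 0 for 36 of 37, with a median of 0.45. None passed in edgeR, 5 had an unadjusted p under 0.05, against 13.1% of all genes tested, and DESeq2 called 1. The median was 0.01 without Mut-1 replicate 1. Fbln5, an elastic fibre protein, had the smallest p of the list, at 66.3, 30.8 and 32.5 CPM in Mut-1 against 17.2, 20.6 and 24.8 CPM in WT-2. The collagen Col3a1 was at 327, 156 and 109 CPM against 124, 135 and 106 CPM, where only replicate 1 of Mut-1 was well above WT-2. In these bulk samples, more cells of a type and more RNA per cell cannot be told apart. Hox genes, which feeder fibroblasts also express, were above 0 for 24 of 27 with a median of 0.69, which became 0.24 over 29 genes without that library. None passed in edgeR, 6 had an unadjusted p under 0.05, against the same 13.1% of all genes, and DESeq2 called 0. The part of feeder RNA in other results was not tested beyond these values and the covariate, with which 57 genes were called higher and 8 lower.

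Interferon and nucleic-acid sensing genes were above 0 for 24 of 35 with a median of 0.15, and 0 passed in edgeR, 3 had an unadjusted p under 0.05 and DESeq2 called 1. In Mut-2 against WT-1 their median was 0.81. Naive pluripotency genes had a median of 0.05, and 0 of 22 passed in edgeR, with 4 at an unadjusted p under 0.05 and 0 called by DESeq2. Markers of endoderm (16 of 18 above 0, median 0.37), mesoderm (13 of 19, 0.26), neural cells (10 of 15, 0.14), muscle (3 of 9, -0.12) and blood (5 of 7, 0.48) held 0 genes that passed in edgeR. At an unadjusted p under 0.05 they had 1, 1, 5, 0 and 3 genes. For this and the 2 lists before, the share over all genes tested was 13.1%. DESeq2 called 0, 0, 2, 0 and 0, and 1 endoderm gene passed its adjusted p without the fold rule. The blood marker Ptprc was at 0 to 3 counts in all 6 libraries. Krt8 was the gene that passed among the trophoblast and epithelial markers, with Krt18, its usual partner, at 23 ± 2.38 against 17 ± 3.04 CPM (0.44, edgeR adjusted p = 0.438).

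Lysosome and autophagy genes were above 0 for 21 of 28 (median 0.25), genes of the unfolded protein and amino acid stress responses for 18 of 24 (0.26), secreted and chemokine factors for 19 of 21 (0.38, and -0.07 without Mut-1 replicate 1) and antigen processing genes for 9 of 14 (0.21). Nuclear genes of oxidative phosphorylation were below 0 for 23 of 29 (-0.13), mitosis genes for 23 of 28 (-0.15) and genes of DNA methylation and heterochromatin for 23 of 34 (-0.09), while the mitochondrial genome's 13 of 14 genes were above 0 (0.28). Targets of p53 had a median of 0.06, and those of Wnt, Nodal and BMP also 0.06. In edgeR 0 of the 242 tested genes of these 10 lists passed, and 42 had an unadjusted p under 0.05, against 13.1% of all genes tested. DESeq2 called 0 by the fold rule, while 6 passed its adjusted p. With the replicate block in the fit of 6 libraries, 1 gene of the unfolded protein and amino acid stress list was called, against 0 in the fit of 12. Of 20 genes of formative and primed pluripotency, Spp1 was the call.

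**Figure D5:**
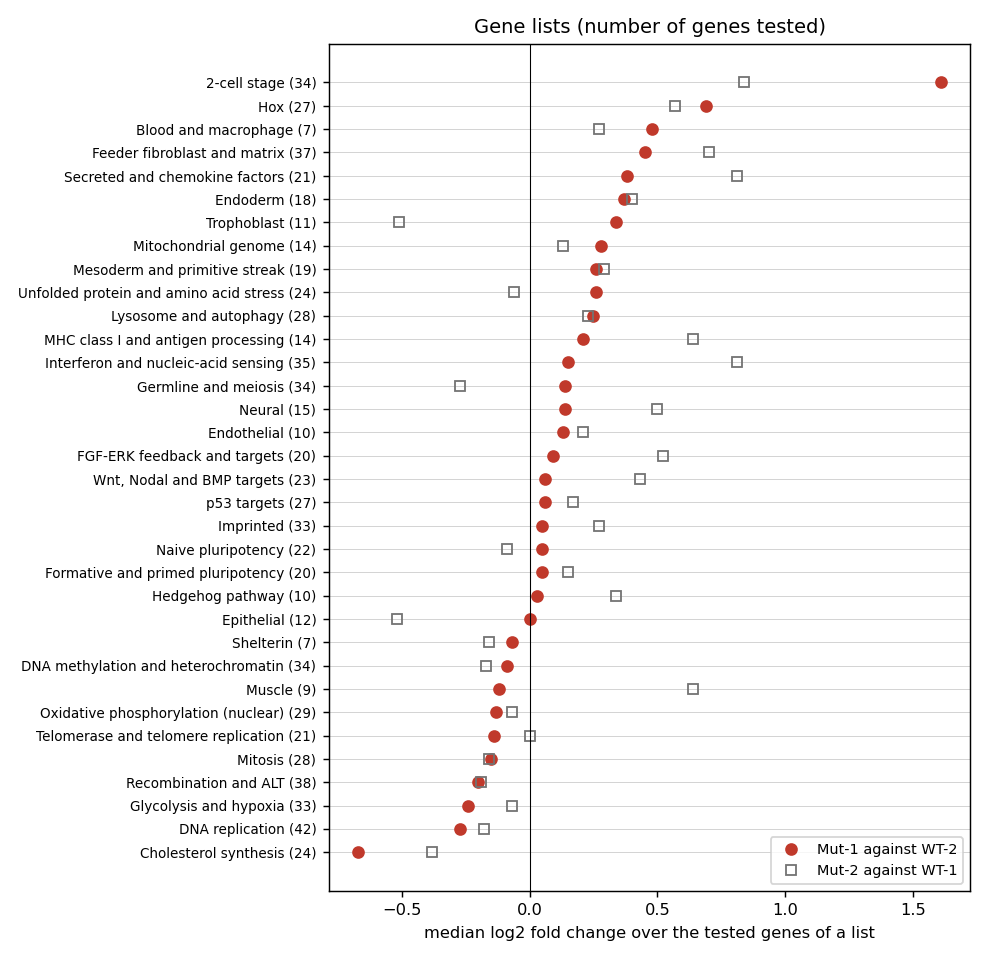
Median log2 fold change over the tested genes of each list in Mut-1 against WT-2 (filled) and in Mut-2 against WT-1 (open), sorted by the first; the number of genes is in brackets. The 2-cell-stage list is highest at 1.61 and cholesterol synthesis lowest at -0.67, and the interferon list lies at 0.15 here and at 0.81 in the other pair.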

How the data were processed

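RNA-seq was measured in 12 libraries of 4 lines, and 6 of them, of Mut-1 and WT-2, are compared here. The authors deposited raw counts, whole numbers for each gene symbol. Per the submitters' processing notes, HTSeq 0.6.0, HISAT2 2.1.0, Bowtie2 2.2.3, bcl2fastq and the build GRCm38 were used. What each did, which annotation was used and whether strand was counted is not given in the sources used here, so reads of overlapping or antisense genes and of near-identical copies cannot be told apart. A second table that some labels name is not analysed here. Positions came from GENCODE M21: 29383 symbols matched by name and 186 by an older symbol, and 2024 did not match.

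All 12 libraries were fitted with 4 line groups in edgeR 4.0.16 (R 4.3.3, limma 3.58.1) by quasi-likelihood, with TMM normalization, filterByExpr and Benjamini-Hochberg adjustment over 16533 genes. Standard errors are the absolute log2 fold change divided by the square root of F. CPM is TMM-normalized. The procedure was tested on simulated data. Depth ran from 14766477 to 17891894 counts per library, and intervals cover counting error only. The chi-square per degree of freedom of WT-1 replicates 1 and 2 was 1.62, against 10.9 to 38.4 for other pairs within lines. A value of 1 is sampling noise, so these 2 libraries differed little beyond it. Both were kept as separate libraries and both enter the shared estimate of the spread. Whether they come from 1 preparation is not given. Without WT-1 replicate 2, 18 of the 61 calls missed the threshold.

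Numbers in the library titles were used to pair the lines in the replicate blocks. Deviations of same-number libraries from their line means correlated at 0.408, 0.392 and 0.291 over 11416 genes, each over 0.1. The main fit and the permutation test of the feeder share did not use this pairing, so the calls of the main fit ignore it. The 35 lists hold 830 symbols, 9 of them not in the table. The members and lists were chosen with earlier results of these data known. Named genes were up to 12 per direction by fold change among called genes of at least 2 CPM without overlap, passing over predicted symbols and pseudogenes, with Tinf2, the shelterin genes, a check of sex chromosome genes (Xist, Tsix and 4 Y-linked genes, of which 0 passed in edgeR and 1 had an unadjusted p under 0.05) and up to 4 members per list by p. Other genes named were chosen after their values were seen. The sex chromosome check covers this pair only. Y-linked Uty had 1.72 and 1.51 CPM in Mut-1 and WT-2, and 7.17 and 3.62 CPM in WT-1 and Mut-2. It passed in Mut-1 against WT-1 (-2.04, edgeR adjusted p = 0.0235). Ddx3y had 7.03 and 4.67 CPM in Mut-1 and WT-2, and 15.3 and 12.5 CPM in WT-1 and Mut-2. Kdm5d lay between 1.33 and 2.17 CPM in all 4 lines. Chromosome shifts used log2(CPM + 0.5) of genes of at least 5 CPM. Alternatives were RLE normalization, DESeq2 1.42.0, no filter, fits of 6 libraries, replicate blocks, the feeder share as a covariate, no fold rule and leaving out libraries.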

Additional observations from a re-analysis of the deposited data

Results flagged for a closer look

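The 7 genes below were picked out by the test of the difference between Mut-1 against WT-2 and Mut-2 against WT-1, 2 pairs that share no library. They had an edgeR adjusted p under 0.05 and a log2 difference of at least 1 in either direction. For Dpp4 the difference was 1.77 (log2, SE 0.27, adjusted p = 0.0435), since the gene rose in this pair and had -0.05 in the other. For Krt8 it was 1.67 (SE 0.23, edgeR adjusted p = 0.0287). Wipi2, of autophagosome formation, Slc29a4 and Fbxl18, an F-box protein, all on distal chromosome 5, had differences of 1.21, 1.22 and 1.09. For Wdfy1 it was -2.09 (SE 0.20, edgeR adjusted p = 0.00139), and for Capn11 -3.49 (SE 0.36, edgeR adjusted p = 0.00219), where Mut-1 and WT-2 had 7.08 ± 0.542 and 7.75 ± 0.821 CPM, WT-1 1.30 and Mut-2 13.4 CPM.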

How the results depend on the processing

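The 54 higher and 7 lower calls became 29 and 4 in the fit of 6 libraries, 114 and 24 with DESeq2, 189 and 54 with no filter and 98 and 26 without the fold rule. With the replicate block they were 123 and 23 (6 libraries) and 81 and 14 (12 libraries). Leaving out each library of the pair gave 17 to 56 higher and 2 to 8 lower. In alternatives chosen after the data were seen, they were 40 and 4 without WT-1 replicate 2, and 19 and 2 without both libraries numbered 1. RLE normalization gave 52 and 7. The 6 shared calls became 0 in separate fits, 16 with DESeq2 and 32 with no filter, 2 without both libraries numbered 1, and 0 to 7 with 1 library left out. The 7 genes of the difference test became 63 with DESeq2, 134 with no filter, 12 with the replicate block, 4 without both libraries numbered 1, and 2 to 11 with 1 library left out. The feeder difference reversed to -0.0385 without Mut-1 replicate 1 and ranged up to 0.564 with 1 library left out, and the chromosome 8 shift ranged from -0.24 to -0.2 with 1 library left out. The cause was not tested. Of the 61 calls, 47 missed the threshold in at least 1 of 15 alternatives, with 45 missing it without both libraries numbered 1, 42 without WT-2 replicate 1 and 41 without Mut-1 replicate 3. With 3 libraries of 1 line a side, nothing here measures the spread between lines of a genotype.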
